A study of Mus musculus with 10 samples.

Results

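The genes described here form the loop between Indian hedgehog and parathyroid hormone-related protein (PTHrP): the ligand genes Ihh and Pthlh, the PTHrP receptor gene Pth1r, the hedgehog receptor genes Ptch1 and Smo, the transcription factor genes Gli1, Gli2 and Gli3, and Hhip, which encodes a surface protein that binds hedgehog ligands. They were taken by symbol, and all 9 were found among the 25239 gene symbols of the count table. RNA came from cells that were sorted, at postnatal day 7, from the sutures of mouse calvaria, the fibrous seams of the skull. The sorted populations were called DDR2-plus and PSC, with 5 libraries each, numbered 1 to 5. The labels do not spell out PSC, and no source used here gives the gates of the sort. For all 10 libraries the labels state a wild-type genotype, while the protocol names Ctsk-Cre mice (n = 5). No treatment is named. How the animals map to the libraries is not stated, and the p-values therefore cover the spread between libraries, which may be technical.

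In growing cartilage, Indian hedgehog is secreted by chondrocytes that have stopped dividing and begin to enlarge. It acts through Patched and Smoothened on neighbouring cells, in which GLI proteins switch target genes on or off, and it raises PTHrP at the ends of the skeletal element. PTHrP in turn acts through its receptor to hold chondrocytes in division and to delay the onset of Indian hedgehog. Ptch1, Gli1 and Hhip are themselves transcribed in response to hedgehog signals. In the skull vault, which forms mostly without cartilage, hedgehog-responsive Gli1-positive cells lie in the sutures, and Pth1r is also made by osteoblasts.

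The windows of 250 bases before the start sites of Ihh, Hhip and Pth1r are shown because these genes had the largest rise, the largest fall and the highest level per length among the 9. They come from RefSeq (build GRCm38.p6, to which mm10 corresponds) and are printed 5′ to 3′ in the direction of the gene, all 3 on the minus strand. Capitals mark matches to any of 5 motifs searched on both strands: GACCACCCA, bound by GLI factors, TGACGTCA, the cyclic AMP response element, its shorter part TGACG, the letters TGTGGT, which RUNX factors bind, and the GC box, written GGGCGG.
Ihh, chr1:74951673-74951922: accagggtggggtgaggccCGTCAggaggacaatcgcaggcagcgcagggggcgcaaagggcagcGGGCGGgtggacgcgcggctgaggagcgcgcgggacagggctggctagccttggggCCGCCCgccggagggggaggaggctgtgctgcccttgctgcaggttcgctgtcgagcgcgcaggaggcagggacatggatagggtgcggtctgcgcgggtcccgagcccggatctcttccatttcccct
Hhip, chr8:80058009-80058258: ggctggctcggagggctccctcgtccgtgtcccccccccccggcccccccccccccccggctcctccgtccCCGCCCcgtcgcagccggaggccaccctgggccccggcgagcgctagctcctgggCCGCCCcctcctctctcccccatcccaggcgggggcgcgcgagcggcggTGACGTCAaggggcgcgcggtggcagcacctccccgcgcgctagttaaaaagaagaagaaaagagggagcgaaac
Pth1r, chr9:110747146-110747395, the outermost of 3 starts: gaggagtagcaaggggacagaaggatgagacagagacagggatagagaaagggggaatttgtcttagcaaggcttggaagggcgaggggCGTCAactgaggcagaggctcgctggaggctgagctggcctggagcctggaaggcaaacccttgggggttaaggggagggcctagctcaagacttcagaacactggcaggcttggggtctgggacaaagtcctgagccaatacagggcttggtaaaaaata
Such windows were found for 8 of the 9 genes, all but Gli1, and for 10 start sites in all. The GLI motif was in 0 of these 10 windows and in 0.225% of all 32851 promoters searched. The full TGACGTCA was in 1 window, that of Hhip, at position -75 from the start site, and in 1.55% of all promoters. That match contains TGACG on each strand, and TGACG also stood at -231 in Ihh and at -161 in the Pth1r window shown, against 17.8% of all promoters. The RUNX motif was in 1 window, that of Gli3 (14% of all), and the GC box in 8 windows (32.7% of all). G and C made up 72% of the Ihh window, 76% of that of Hhip and 56% of the Pth1r window shown, against a median of 52.4%. The Pth1r windows not shown had 65.6% and 70.4%, with 1 and 4 GC boxes against 0 in the one shown. Which Pth1r start was used in these cells was not tested. A match is a string of letters, not a measured binding site, and its absence says only that these letters are not in this window.

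Total counts per library ranged from 43419129 to 62021992, and 1 count corresponded to 0.0146 to 0.0249 CPM, a count scaled to the library's TMM-adjusted size. All 9 genes passed the filter on low counts, and the lowest count of any of them in any library was 387. Ddr2 mRNA, of the collagen receptor that names the DDR2-plus population, measured 112 ± 3.56 CPM there and 152 ± 10.7 CPM in PSC (n = 5 each, ± SD), lower in the population named for it (edgeR adjusted p = 0.000165). Chondrocyte, osteoblast and suture mesenchyme markers were detected in both populations. The summed level of 11 markers of resting and dividing chondrocytes was 79622 to 111856 CPM in DDR2-plus and 9273 to 23334 CPM in PSC. That of 8 osteoblast markers was 25308 to 46313 and 139892 to 160884 CPM, and that of 9 suture mesenchyme and fibroblast markers 876 to 1537 and 3707 to 5436 CPM. Single genes made up most of these sums: Col2a1 (means of 81477 and 13386 CPM), Col1a1 (29132 and 137940 CPM) and Postn (670 and 3836 CPM). At an edgeR adjusted p under 0.05, 10 of the 11 chondrocyte markers were higher in DDR2-plus and 1 lower. All 8 osteoblast markers were lower. Of the 9 suture markers 1, Axin2, was higher and 5 were lower. For 9 markers of maturing cartilage, Ihh and Pth1r among them, the sums overlapped, at 6473 to 9625 and 5396 to 9183 CPM. The largest term there was Ibsp (2123 and 4109 CPM), which is also in the osteoblast sum. Markers of other tissues also differed. The sum of 9 astrocyte and oligodendrocyte markers was 78.7 to 387 CPM in DDR2-plus against 20.1 to 36.2 CPM in PSC, highest in DDR2-plus 1 and 4. That of 7 Schwann cell markers was 419 to 840 against 57.9 to 112 CPM, that of 8 neuron markers 26.6 to 103 against 5.01 to 12.8 CPM, and that of 7 pineal and photoreceptor markers 148 to 237 against 4.95 to 7.52 CPM. All PSC libraries were at 0 for Gad2 among the neuron markers and for Aanat and Cdhr1 among the pineal ones. The part of these other tissues in the results below was not tested. Sums were 21.6 to 37.8 and 17.9 to 40.4 CPM for 5 endothelial markers, 12.6 to 25 and 7.11 to 18.2 CPM for 7 haematopoietic, 9.45 to 37.6 and 6.2 to 25.5 CPM for 5 skeletal muscle, and 18.5 to 75.9 and 3.64 to 10.4 CPM for 6 epithelial markers. In such bulk samples fewer cells of a type and less RNA per cell cannot be told apart.

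Of the 9 genes, 4 were higher in DDR2-plus (Ihh, Ptch1, Pth1r and Smo), 2 were lower (Pthlh and Hhip) and the 3 Gli genes did not pass the test. Calls are an adjusted p under 0.05 in edgeR's quasi-likelihood test, with adjustment over all 15416 genes tested. Over all those genes 20.1% were called higher and 19% lower, 39.1% in all, so the number of calls among 9 genes stands against a high background. The groups did not overlap for 5 of the 9 genes (Ihh, Pthlh, Pth1r, Ptch1 and Hhip), against 30.1% of all genes tested. The median log2 fold change of the 9 was 0.25, and that of all tested genes 0.04. Scaling by library size alone shifted the median of all tested genes to 0.31 and the share of calls that were higher from 51.4% to 77.9%. The sign of each of the 9 fold changes was the same under that scaling.

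**Figure D1:**
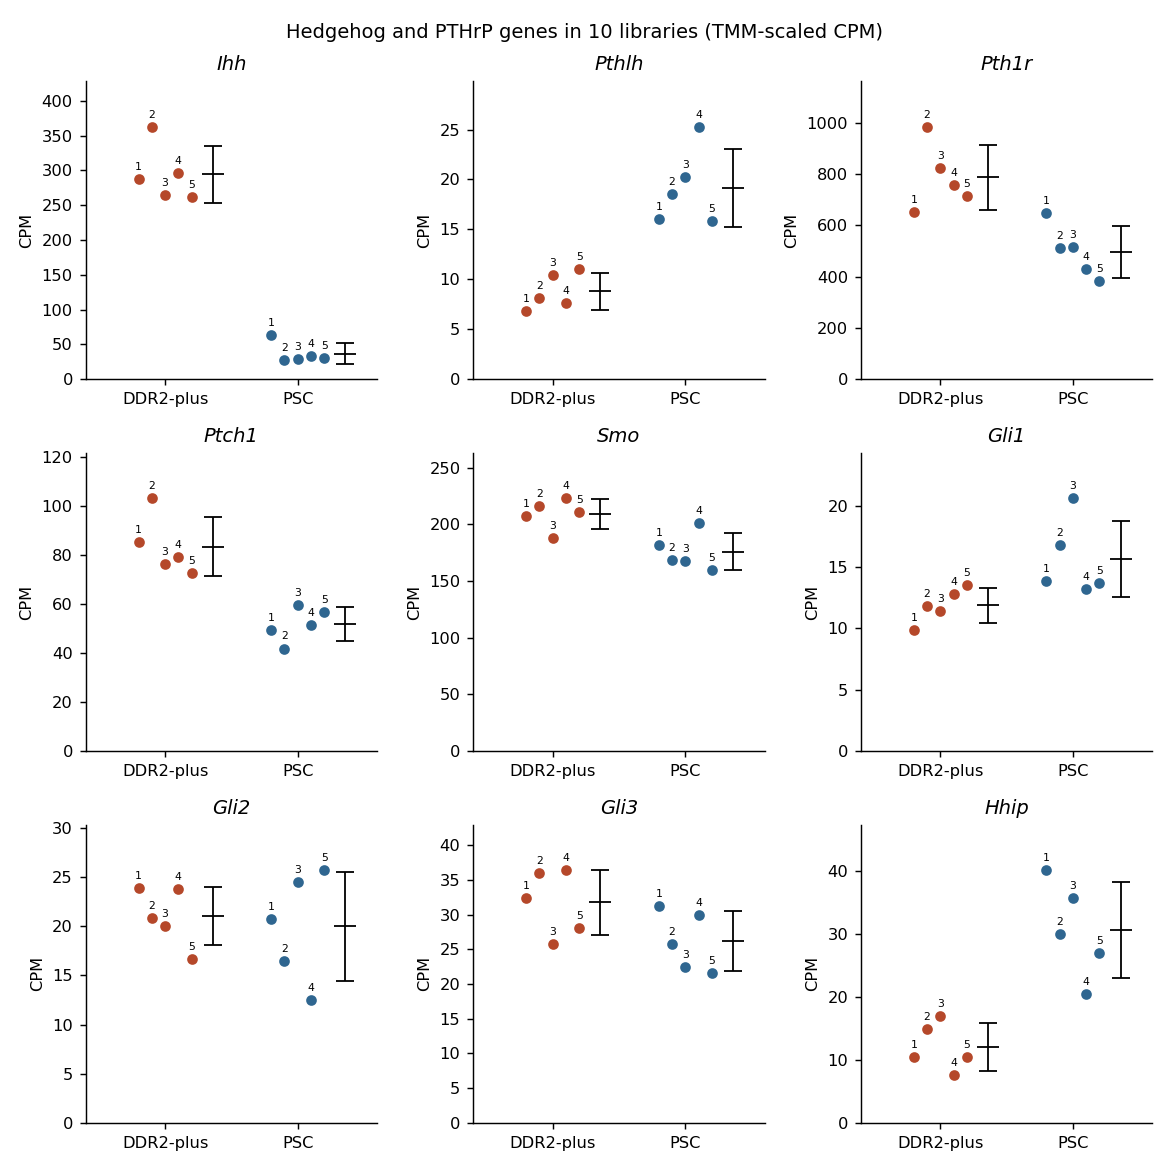
TMM-scaled CPM of the 9 genes, one panel each, in the 5 DDR2-plus (red) and 5 PSC (blue) libraries, numbered as in the labels; bars beside the points are mean ± SD. Ihh lies between 262 and 363 CPM in DDR2-plus and at 63.9 CPM or less in PSC, while the points of the Gli genes overlap.

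Ihh (mm10 chromosome 1, 74945315 to 74951672, minus strand), the hedgehog ligand of cartilage, showed the largest difference of the 9. Its level was 288, 363, 264, 296 and 262 CPM in DDR2-plus 1 to 5. PSC 1 to 5 gave 63.9, 27.2, 29.4, 32.8 and 30 CPM. Every DDR2-plus library was thus above every PSC library, and PSC 1 stood above the other PSC libraries. The mean was 295 ± 40.9 CPM against 36.7 ± 15.3 CPM (SD, n = 5 each), a log2 fold change of 3.0 (SE 0.224, 95% interval 2.52 to 3.49; edgeR adjusted p = 1.09e-06). Without PSC 1 the log2 fold change was 3.30. Of all tested genes, 96.4% had a lower log2 fold change.

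Among the hedgehog ligand genes the reads came almost wholly from Ihh. Its share of the counts of Ihh, Dhh and Shh was 98.28% to 99.75% in DDR2-plus and 95.63% to 100% in PSC. The lowest exact 95% binomial bound was 94.39%, in PSC 3, and such bounds cover counting error only. Dhh, the ligand of nerve sheath and testis, had 687 counts over the DDR2-plus and 112 over the PSC libraries. It was not detected in PSC 1 and PSC 2 and did not pass (2.34 ± 1.83 and 0.535 ± 0.674 CPM, edgeR adjusted p = 0.171), and 25.2% of its exonic bases are shared with other annotated genes. With limma-voom it passed as higher (log2 fold change 4.01, limma-voom adjusted p = 0.0448). Schwann cells make Dhh. The sum of their markers was highest in DDR2-plus 1, which had the most Dhh counts (285). It was lowest of all in PSC 3, which had the most Dhh counts of PSC (58). By mean, the largest term of that sum was S100b in both populations (229 and 53.8 CPM), so the sum in PSC rests largely on a single gene. The part of Schwann cells in the Dhh level was not tested. Shh had 8 counts in DDR2-plus and 2 in PSC, too few to compare.

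The 4 genes below had profiles nearest to that of Ihh among 10400 named genes with a mean of at least 5 CPM: Aldoc, Slc38a3, Col10a1 and Ccn6. The measure was the root mean square distance over the 10 libraries between log2 CPM profiles centred on their means, and it was 0.209, 0.259, 0.261 and 0.325 for them. Col10a1, the collagen of hypertrophic cartilage, averaged 1862 ± 237 CPM across the DDR2-plus libraries against 240 ± 107 CPM across PSC (SD, n = 5 each). PSC 1, the PSC library highest in Ihh, was also highest in Col10a1, at 423 CPM against 144 to 225 CPM in the other 4. None of the other 8 genes of the loop was within 1.23 of Ihh on this measure. The gap between their fold changes and that of Ihh already largely implies this. A ratio of counts within a library does not depend on scaling, and the ratio to Col10a1 was chosen after the values were seen. For every 100 Col10a1 counts there were 18.7, 19.6, 12.4, 14.5 and 15.1 Ihh counts in DDR2-plus 1 to 5. In PSC 1 to 5 there were 15.1, 12.3, 13, 17.4 and 20.9. These ranges overlapped almost wholly, with means of 16 ± 2.99 and 15.7 ± 3.48, although both genes differed several-fold between the populations. As Col10a1 was among the genes nearest to Ihh in profile, the overlap restates that likeness and adds no separate evidence. Against Col2a1, the main collagen of cartilage, there were 0.364 ± 0.0454 and 0.289 ± 0.115 Ihh counts per 100, again overlapping, a ratio also chosen after the values were seen.

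Pthlh (chromosome 6, 147252101 to 147264183, minus strand), which encodes PTHrP, went the other way from Ihh. It was at 6.86, 8.11, 10.4, 7.6 and 11 CPM in DDR2-plus 1 to 5. Across PSC 1 to 5 the values were 16, 18.5, 20.2, 25.3 and 15.8 CPM. All PSC libraries were above all DDR2-plus libraries. The mean was 8.79 ± 1.81 CPM against 19.1 ± 3.89 CPM (SD, n = 5 each), 2.18-fold lower in DDR2-plus (log2 fold change -1.12, SE 0.18, 95% interval -1.51 to -0.73; edgeR adjusted p = 0.00033). The nearest profiles were those of Col6a2, a chain of type VI collagen, Kcne4, a potassium channel subunit, Pcdhgc3, a protocadherin, and Fam171a1, at distances of 0.16 to 0.173. Pthlh is made by resting chondrocytes of the growth plate, and so is Sfrp5, a secreted WNT inhibitor. Sfrp5 ranged from 4.83 to 7.44 CPM in DDR2-plus and from 26.7 to 66.9 CPM in PSC, the only one of the 11 markers of resting and dividing chondrocytes that was lower in DDR2-plus. The other 10 were higher there, Ucma among them (328 and 60.6 CPM, edgeR adjusted p = 0.000122), so the list as a whole did not go with Pthlh. Pthlh and Sfrp5 did not keep their ratio, as their falls of 2.18-fold and 6.65-fold already imply. There were 1.09 to 2.21 Pthlh counts per Sfrp5 count in DDR2-plus and 0.302 to 0.944 in PSC, without overlap. This ratio was chosen after the values were seen.

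Pth1r (chromosome 9, 110722085 to 110747145, minus strand), the receptor for PTHrP and parathyroid hormone, was the most abundant of the 9 per length in both populations. Its level was 653, 985, 825, 758 and 713 CPM in DDR2-plus 1 to 5. The PSC libraries, in the same order, had 647, 511, 515, 428 and 384 CPM. The groups were apart by a narrow margin, between DDR2-plus 1 and PSC 1. The mean was 787 ± 127 CPM against 497 ± 101 CPM (SD, n = 5 each), 1.58-fold higher in DDR2-plus (log2 fold change 0.66, SE 0.141, 95% interval 0.36 to 0.97; edgeR adjusted p = 0.00246). The receptor and its ligand gene thus moved in opposite directions, and the ratio of Pth1r to Pthlh counts was 64.7 to 121 in DDR2-plus and 16.9 to 40.5 in PSC. Among the nearest profiles were Ncoa2, a nuclear receptor coactivator, Atoh8, a transcription factor, and Fgfr2, a receptor mutated in craniosynostosis. Their distances were 0.125, 0.139 and 0.147. Of the other 8 genes of the loop the nearest was Ptch1 at 0.279. Genes picked as nearest among 10400 lie closer than the nearest of 8 almost by selection, so no conclusion on the loop is drawn.

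Unlike Ihh, Pth1r did not keep its ratio to Col10a1, as the fold changes of Pth1r and Col10a1, 1.58 and 7.74, already imply. For every 100 Col10a1 counts there were 37.1 to 53.1 Pth1r counts in DDR2-plus and 153 to 267 in PSC, without overlap. Against 100 counts of Bglap, the osteoblast gene of osteocalcin, there were 44.1 to 97.9 in DDR2-plus and 6.74 to 11.3 in PSC. Of the 9 markers of maturing cartilage, 6 were higher in DDR2-plus, Ihh, Pth1r and Col10a1 among them, and 1, Ibsp, was lower. Mmp13 and Alpl did not pass (edgeR adjusted p of 0.0521 and 0.577). Bglap and Col10a1 were chosen for this after the values were seen.

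Ptch1 (chromosome 13, 63508328 to 63573598, minus strand), the receptor that hedgehog ligands bind and block, was at 85.2, 103, 76.1, 79.2 and 72.5 CPM in DDR2-plus 1 to 5. In PSC 1 to 5 it was at 49.3, 41.8, 59.5, 51.2 and 56.8 CPM. The lowest DDR2-plus library was above the highest PSC library. The mean was 83.3 ± 12.2 CPM against 51.7 ± 6.93 CPM (SD, n = 5 each), a log2 fold change of 0.69 (SE 0.116, 95% interval 0.44 to 0.94; edgeR adjusted p = 0.000478). There were 3.38 to 3.74 Ihh counts for each Ptch1 count in DDR2-plus, a narrow range, and 0.494 to 1.3 in PSC. The nearest profiles were Slc20a1, a phosphate transporter, Cab39, Atp6v1c1, a subunit of the vacuolar proton pump, and Dnajb6, a chaperone, at 0.115 to 0.147.

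Smo (chromosome 6, 29735503 to 29761365, plus strand), the transducer that Patched holds in check, differed least of the called genes. It was at 207, 216, 188, 223 and 211 CPM in DDR2-plus 1 to 5. PSC 1 to 5 gave 182, 169, 168, 201 and 160 CPM. DDR2-plus 3 was below PSC 4, so the groups overlapped. The log2 fold change was 0.25 (SE 0.0765, 95% interval 0.08 to 0.42; edgeR adjusted p = 0.0202). The call was lost without DDR2-plus 2 (log2 fold change 0.23, edgeR adjusted p = 0.0523) and without DDR2-plus 4 (0.22, edgeR adjusted p = 0.0597). It was also lost without DDR2-plus 1 and 4 together, the libraries highest in astrocyte markers, a comparison chosen after the data were seen (0.22, edgeR adjusted p = 0.104). The ratio of Ptch1 to Smo counts was 0.343 to 0.478 in DDR2-plus and 0.248 to 0.355 in PSC.

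Hhip (chromosome 8, 79965851 to 80058006, minus strand), the decoy that binds hedgehog ligands, fell most of the 9. It was at 10.4, 14.9, 16.9, 7.64 and 10.4 CPM in DDR2-plus 1 to 5. Across PSC 1 to 5 the values were 40.1, 29.9, 35.6, 20.5 and 26.9 CPM. Every PSC library was above every DDR2-plus library. The mean was 12 ± 3.76 CPM against 30.6 ± 7.63 CPM (SD, n = 5 each), 2.54-fold lower in DDR2-plus (log2 fold change -1.35, SE 0.229, 95% interval -1.84 to -0.85; edgeR adjusted p = 0.000495). Hhip and Ptch1, both used as readouts of hedgehog signalling, therefore passed the test in opposite directions.

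Gli1 (chromosome 10, 127329882 to 127341974, minus strand), the third such readout and an activator, did not pass. It was at 9.84, 11.8, 11.4, 12.8 and 13.5 CPM in DDR2-plus 1 to 5. The PSC libraries, in the same order, had 13.9, 16.8, 20.6, 13.2 and 13.7 CPM. The groups overlapped only between DDR2-plus 5 and PSC 4, and PSC 3 was the highest. The log2 fold change was -0.40 (SE 0.155, 95% interval -0.73 to -0.06; edgeR adjusted p = 0.059). Without PSC 4 it passed as lower, at -0.46 (edgeR adjusted p = 0.0453). The remaining 19 of 20 alternative settings gave no call, with an adjusted p of up to 0.523. Ptch1 counts per Gli1 count were 5.39 to 8.74 in DDR2-plus and 2.49 to 4.13 in PSC, without overlap, a ratio chosen after the values were seen. The opposite signs of the log2 fold changes of Ptch1 and Gli1, 0.69 and -0.40, already imply a higher ratio in DDR2-plus. Profiles nearest to Gli1 were those of Net1, Slc25a46, Scfd2 and Desi2, at 0.102 to 0.122. Of the bases in Gli1 exons 6.55% are shared with other annotated genes, whose reads could not be told apart by strand.

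Gli2 (chromosome 1, 118834132 to 119053619, minus strand), the main activator of early hedgehog responses, was at 23.9, 20.8, 20, 23.8 and 16.7 CPM in DDR2-plus 1 to 5. In PSC 1 to 5 it was at 20.7, 16.5, 24.5, 12.5 and 25.7 CPM. The PSC libraries spanned the whole DDR2-plus range. The log2 fold change was 0.08 (95% interval -0.33 to 0.48; edgeR adjusted p = 0.785), and without PSC 4 it was -0.05. Gli3 (chromosome 13, 15463235 to 15730026, plus strand), which acts mostly as the repressor, was at 32.4, 36, 25.8, 36.4 and 28.1 CPM in DDR2-plus 1 to 5. PSC 1 to 5 gave 31.2, 25.8, 22.4, 30 and 21.6 CPM, again with overlap. Its log2 fold change was 0.28 (95% interval -0.02 to 0.57; edgeR adjusted p = 0.132). It passed as higher only when libraries were scaled by their size alone (log2 fold change 0.55, edgeR adjusted p = 0.00505). These intervals leave room for differences of up to about the sizes at their ends, so equal levels were not shown. Ratios within libraries overlapped as well, with 0.303 to 0.478 Gli1 counts per Gli3 count in DDR2-plus and 0.438 to 0.918 in PSC. For Gli2 to Gli3 they were 0.579 to 0.777 and 0.417 to 1.19. Astrocytes also express Gli2, Gli3 and Ptch1, and the part of the astrocyte markers given above was not tested. Without DDR2-plus 1 and 4 the log2 fold change of Gli2 was -0.06 and the calls on Ihh, Pthlh, Pth1r, Ptch1 and Hhip stood. The libraries kept, DDR2-plus 2, 3 and 5, still had sums of 81, 127 and 78.7 CPM for the astrocyte and oligodendrocyte markers. All were above the PSC range of 20.1 to 36.2 CPM, so leaving out 1 and 4 is no test of astrocyte RNA.

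**Figure D2:**
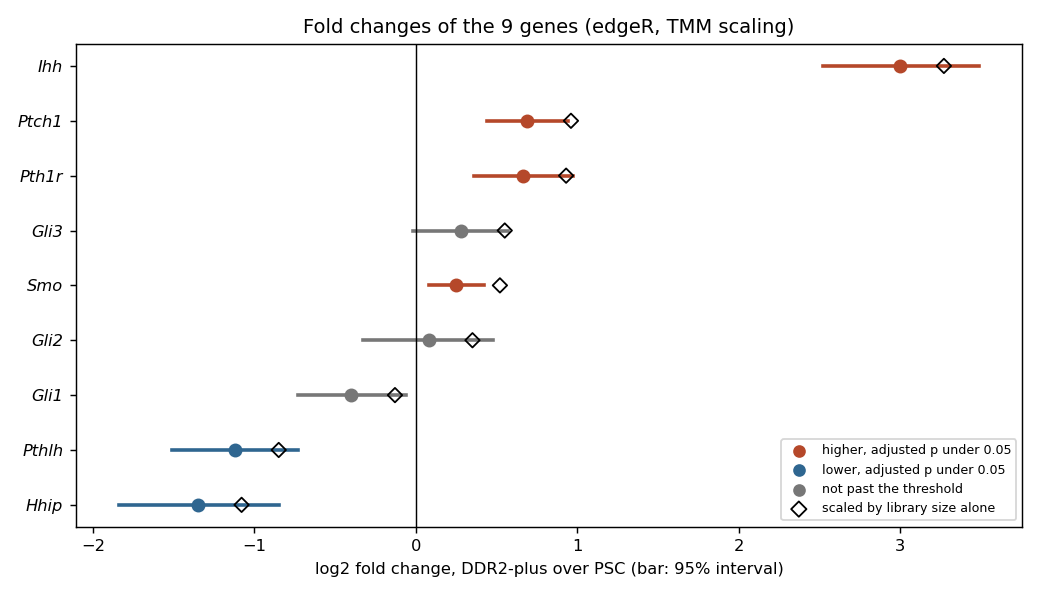
Log2 fold change of each of the 9 genes (points; red called higher, blue called lower, grey not past the threshold) with its 95% interval (bars), and the value with scaling by library size alone (open diamonds). Ihh is farthest to the right at 3.0 and Hhip farthest to the left at -1.35; the diamonds are all shifted towards higher values.

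Levels of different genes were set side by side only per kb of exonic length. In DDR2-plus the order was Pth1r (269 ± 43.5 CPM per kb), Ihh (96.7 ± 13.4), Smo (37.2 ± 2.38), Ptch1 (5.87 ± 0.859), Pthlh (5.43 ± 1.12), Gli3 (3.31 ± 0.491), Gli2 (3.07 ± 0.436), Gli1 (2.38 ± 0.28) and Hhip (1.33 ± 0.415; SD, n = 5). Neighbours whose ranges over libraries overlapped were Ptch1 with Pthlh, Gli3 with Gli2 and Gli2 with Gli1. In PSC the order was Pth1r (170 ± 34.5 CPM per kb), Smo (31.3 ± 2.88), Ihh (12 ± 5.03), Pthlh (11.8 ± 2.4), Ptch1 (3.65 ± 0.489), Hhip (3.37 ± 0.84), Gli1 (3.13 ± 0.621), Gli2 (2.91 ± 0.804) and Gli3 (2.73 ± 0.454). There the ranges of Ihh and Pthlh overlapped, as did each neighbouring pair from Ptch1 down to Gli3. The ligand genes of the loop were thus at like levels per length in PSC and far apart in DDR2-plus. With the length of the longest transcript in place of all exons, the order was the same in DDR2-plus, and in PSC only the last 4 genes changed places.

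**Figure D3:**
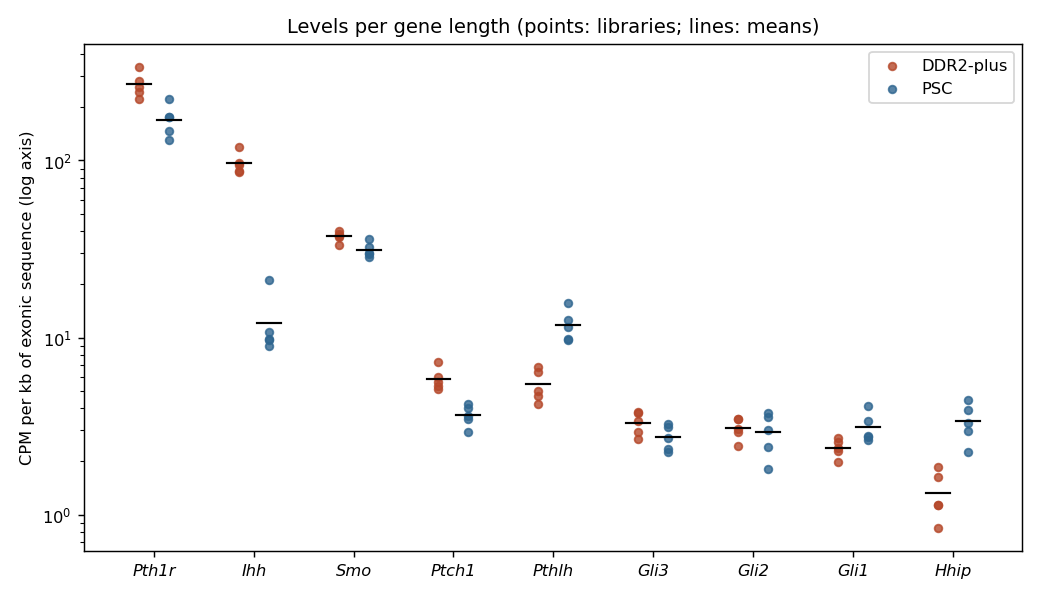
TMM-scaled CPM per kb of exonic sequence on a log axis, for the 9 genes in the order of their DDR2-plus means; points are libraries (red DDR2-plus, blue PSC) and lines are group means. Pth1r is highest in both populations (means of 269 and 170), and Ihh falls from 96.7 in DDR2-plus to 12 in PSC.

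**Figure D4:**
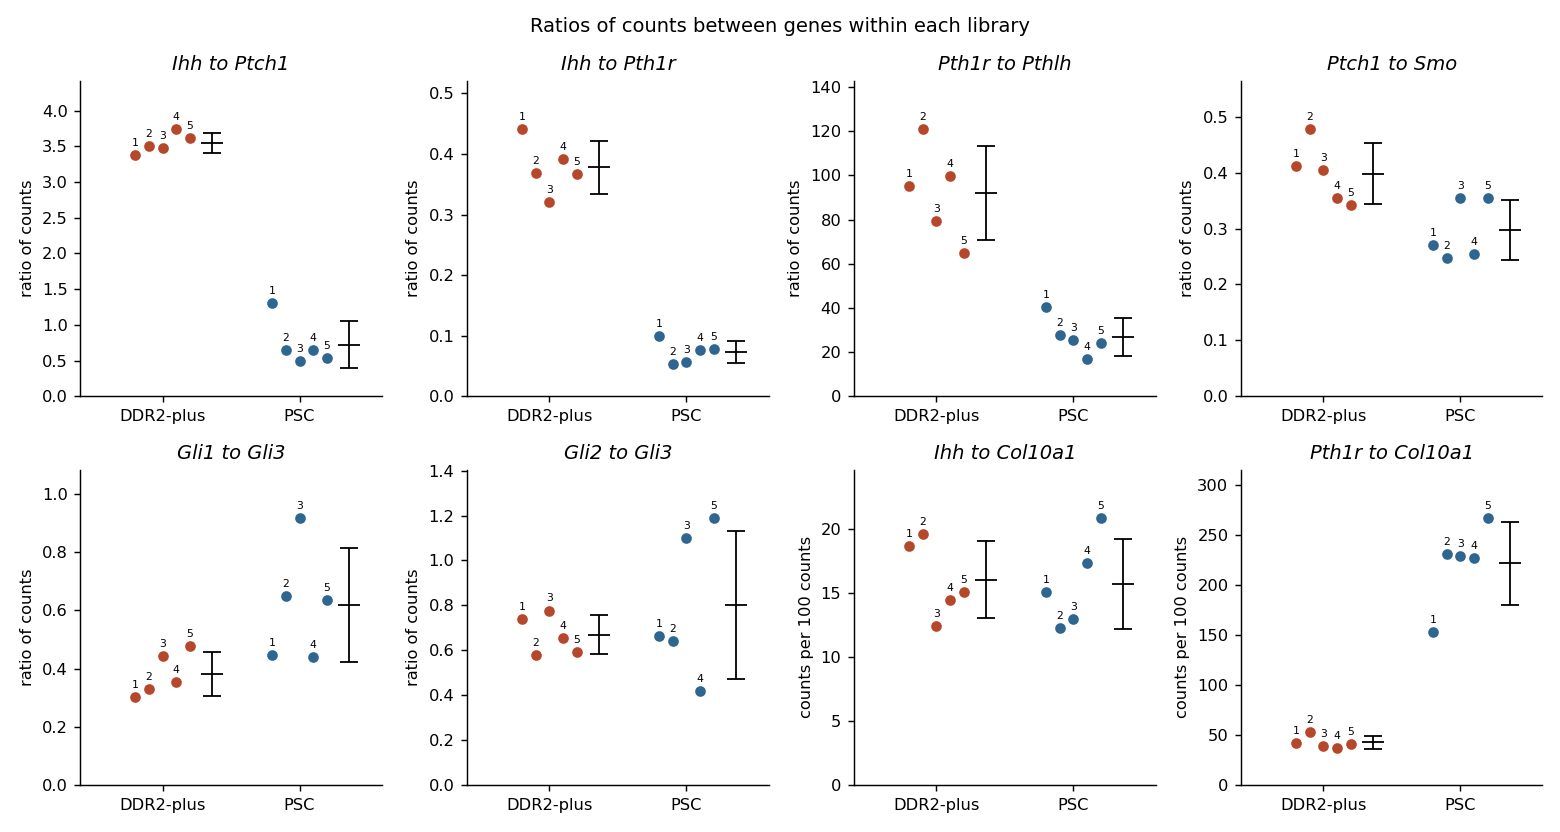
Ratios of counts between genes within each of the 10 libraries, as counts per count or, for the ratios to Col10a1, per 100 counts; numbers are library numbers and bars mean ± SD. Ihh to Col10a1 overlaps almost wholly (means of 16 and 15.7), whereas Ihh to Ptch1, Ihh to Pth1r, Pth1r to Pthlh and Pth1r to Col10a1 do not overlap between the populations. The ratios to Col10a1 were chosen after the values were seen.

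The other genes of these pathways were described by lists. Of 68 further genes listed, 62 were tested, of which 14 were higher and 21 lower in DDR2-plus, with a median log2 fold change of 0.03. These counts and those of the lists below stand against 20.1% higher and 19% lower over all tested genes. Grk2 was also listed under an older symbol, which the table does not hold, and Lrp2, Pth, Pth2, Pth2r and Shh were too low to test. Pth, the parathyroid hormone gene, had 0 counts in all libraries.

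Genes for ligand processing and release split. Of 6 tested besides Ihh, 3 were higher and 1 lower. Scube2, which helps release hedgehog ligands from the cell, was at 8.63 ± 1.55 CPM there against 80.8 ± 16.1 CPM in the PSC libraries, a 9.37-fold fall (edgeR adjusted p = 1.29e-07). Its relatives Scube1 (64.4 and 34 CPM, edgeR adjusted p = 0.000491) and Scube3 (28 and 11.8 CPM, edgeR adjusted p = 0.000417) were 1.89-fold and 2.38-fold higher. The 3 members of this family thus did not move together. Hhat, the acyltransferase that adds palmitate to hedgehog ligands, was at 28.1 and 21.3 CPM (edgeR adjusted p = 0.0362). That call was lost on leaving out any of DDR2-plus 1, 2, 4 and 5 or PSC 2, 3 and 5 (edgeR adjusted p between 0.0542 and 0.0818), and without DDR2-plus 1 and 4 together (edgeR adjusted p = 0.128). Disp1, which exports the ligand, was at 37.4 and 30.3 CPM without a call (edgeR adjusted p = 0.207).

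Of 7 tested co-receptors and surface inhibitors, 6 were called lower in DDR2-plus, Hhip among them, and 1, Ptch1, higher. With library size scaling 4 of the 7 were lower. Besides Ptch1 and Hhip 5 were tested, all called lower. Gas1, a co-receptor, fell from 664 ± 71.8 CPM in PSC to 277 ± 47.9 CPM, a 2.4-fold difference (edgeR adjusted p = 5.16e-06). It shares 19.9% of its exonic bases with another annotated gene. The co-receptor genes Boc (118 and 150 CPM, edgeR adjusted p = 0.00254) and Cdon (24.5 and 39.6 CPM, edgeR adjusted p = 0.027) were 1.27-fold and 1.62-fold lower. Boc lost its call with library size scaling (edgeR adjusted p = 0.479). Cdon lost its own under that scaling (edgeR adjusted p = 0.138), with limma-voom (adjusted p = 0.0556), without DDR2-plus 1 or 5 or PSC 3 or 5 (edgeR adjusted p between 0.0526 and 0.0697) and without DDR2-plus 1 and 4 together (edgeR adjusted p = 0.13). Gpc3, a glypican that competes for the ligand, was at 247 ± 37.5 and 698 ± 106 CPM, 2.82-fold lower (edgeR adjusted p = 1.93e-06).

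Few genes between Smoothened and the GLI proteins passed the test. Of 14 tested besides the members, 0 were higher, 2 lower and 12 not past the threshold. The lower genes were Evc, of the ciliary complex that binds Smoothened (19.8 and 28.8 CPM, 1.45-fold, edgeR adjusted p = 0.00794), and Prkaca, the catalytic subunit of protein kinase A (50.3 and 66.7 CPM, 1.33-fold, edgeR adjusted p = 0.0044). Both calls were lost with library size scaling (edgeR adjusted p of 0.141 and 0.265). Csnk1a1, the casein kinase that also marks GLI proteins (250 and 233 CPM, edgeR adjusted p = 0.212), and Spop, a ubiquitin ligase adaptor (159 and 153 CPM, edgeR adjusted p = 0.532), were the most abundant without a call. With library size scaling both passed as higher (edgeR adjusted p of 0.000323 and 0.00198), as did Disp1 (edgeR adjusted p = 0.0166).

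Genes often used as hedgehog targets went both ways. Of 12 tested besides Gli1, Ptch1 and Hhip, 4 were higher, 4 lower and 4 not past the threshold. Nkx3-2, a repressor of cartilage maturation, was at 10.7 ± 0.915 CPM against 3.44 ± 1.64 CPM, 3.11-fold higher (edgeR adjusted p = 0.00113). Foxc2, a forkhead factor of skeletal mesenchyme, was 2.18-fold higher (61.7 and 28.2 CPM, edgeR adjusted p = 0.000624). Osr2, a factor of palate and joint mesenchyme, was 3.73-fold lower (8.13 and 30.4 CPM, edgeR adjusted p = 0.000719), and Bmp4 2.19-fold lower (24.4 and 53.6 CPM, edgeR adjusted p = 7.28e-05). Foxd1 was at 15.4 ± 6.66 and 34.3 ± 21.3 CPM and called lower (edgeR adjusted p = 0.0386). Without DDR2-plus 2, 3 or 4 or PSC 4 or 5 it was not (edgeR adjusted p between 0.0751 and 0.109), nor with library size scaling (edgeR adjusted p = 0.0941) or when library numbers were blocked (edgeR adjusted p = 0.0579), with limma-voom (adjusted p = 0.052) or without DDR2-plus 1 and 4 together (edgeR adjusted p = 0.074). Foxl1 and Mycn did not pass (edgeR adjusted p of 0.827 and 0.422).

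Genes of PTHrP receptor signalling, which include partners and G proteins of the receptor as well as genes downstream of it, also split. Of 30 tested besides Pthlh and Pth1r, 7 were higher, 11 lower and 12 not past the threshold. Pthlh included, 12 were lower, and 5 with library size scaling. The phosphodiesterase genes Pde4b and Pde3a, whose products break down cyclic AMP, were 5.19-fold and 1.87-fold higher (344 ± 49.6 against 66.3 ± 16.4 CPM and 48.8 ± 6.36 against 26.1 ± 5.06 CPM; edgeR adjusted p of 1.12e-06 and 0.000185). Nr4a2 and Nr4a1, nuclear receptors induced by cyclic AMP, were 4.38-fold and 2.81-fold higher (640 and 146 CPM, and 1573 and 560 CPM; edgeR adjusted p of 2.16e-05 and 3.91e-05). The Nr4a genes are also immediate early genes. Other such genes were higher as well: Fos 1.49-fold, Fosb 2.15-fold, Junb 2.51-fold, Egr1 1.73-fold, Atf3 2.61-fold and Ier2 2.04-fold. These 6 were chosen after the data were seen, so their number is no test against the 20.1% of all tested genes called higher. The part of an immediate early response in the Nr4a levels was not tested. Ramp2, which encodes a partner of the receptor at the membrane, was 1.92-fold lower (27.2 and 52.1 CPM, edgeR adjusted p = 1.15e-05), with 33.4% of its exonic bases shared with Vps25, and Rgs2, a brake on G proteins that PTH signals induce, 1.73-fold lower (23 and 40 CPM, edgeR adjusted p = 0.00414). Prkacb (91 and 81.3 CPM, edgeR adjusted p = 0.282) and Mef2d (84.1 and 74.4 CPM, edgeR adjusted p = 0.078) did not pass, although both did as higher with library size scaling (edgeR adjusted p of 0.00632 and 0.000237).

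**Figure D5:**
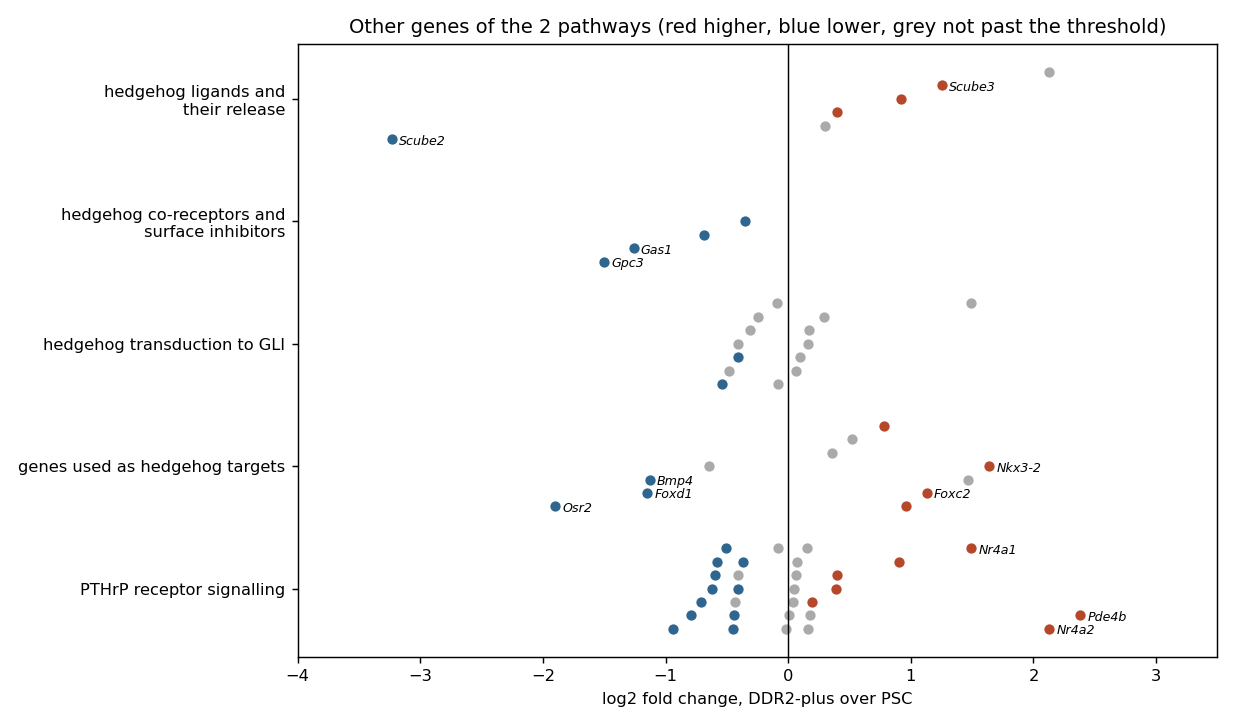
Log2 fold change (DDR2-plus over PSC) of tested genes of the 5 pathway lists other than the 9 genes themselves; red points were called higher, blue lower, grey did not pass, vertical spread within a list only parts the points, and called genes past 1 in size are named. The co-receptor and surface inhibitor genes shown all lie to the left of 0, and the other lists lie on both sides.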

How the data were processed

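RNA of sorted suture cells was measured in 10 libraries. Per the labels' protocols, cDNA was amplified from 1 ng of RNA, made into libraries with a transposase kit and sequenced with 50 paired-end cycles. Per the submitters' processing notes, reads were placed on mm10 and DESeq was used. No source used here names the aligner, the counter or the annotation. The authors deposited a table of raw counts for each gene symbol.

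The counts were tested with edgeR 4.0.16 (R 4.3.3): quasi-likelihood F test, TMM factors, filterByExpr, no covariates, Benjamini-Hochberg adjustment over all tested genes, threshold 0.05. On simulated counts over 15110 genes it recovered 34%, 65.3% and 86% of genes changed 1.5-fold, 2-fold and 4-fold, while 5.37% of the genes it called had not been changed. Only 49 or 50 genes were changed by each of these amounts, whereas 39.1% of genes were called here. Both rates depend on the share of changed genes, so they need not hold for this comparison. Coordinates and exonic lengths came from GENCODE M21, start-site windows from RefSeq. Alternatives were DESeq2 1.42.0, limma-voom (limma 3.58.1), other scalings and filters, the library number as a block and leaving out each library.

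The 9 genes and the lists were chosen with earlier results of these data known. Named were the 9 genes, from each pathway list up to 6 called genes of at least 1 CPM with the largest fold changes and the 2 most abundant without a call, and the 4 genes nearest in profile to Ihh, Pthlh, Pth1r, Ptch1 and Gli1, of which 2 genes in all are not reported here. No libraries of a group agreed within sampling noise (lowest chi-square per degree of freedom 40.9).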

Additional observations from a re-analysis of the deposited data

Results flagged for a closer look

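The Ihh level of PSC 1 stood apart from the other PSC libraries, at 63.9 CPM against 27.2 to 32.8 CPM, a gap of 0.846 of the range of the group. The ratio of Ihh to Ptch1 counts stood apart in the same library, at 1.3 against 0.494 to 0.651, a gap of 0.804 of the range. The value that 5 samples exceed by chance in about 1 in 20 groups is 0.71, and 30 groups were checked over the 9 genes and 6 ratios, of which these 2 passed it. The ratios share genes with each other and with the levels, so the 2 are not independent. PSC 1 was also the PSC library highest in Col10a1, Pth1r and Hhip.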

How the results depend on the processing

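Ihh, Pthlh, Pth1r, Ptch1 and Hhip kept their direction and their call in all 20 alternatives, with log2 fold changes of 2.91 to 3.30, -1.22 to -0.85, 0.56 to 0.93, 0.59 to 0.96 and -1.51 to -1.08. Scaled by library size only, the counts gave 5421 genes higher and 1538 lower, against 3096 and 2926, and Gli3 passed at 0.55, as that scaling shifts all genes upwards. Leaving out single libraries, the log2 fold change was 0.22 to 0.30 for Smo (call lost in 2 of 10), -0.46 to -0.28 for Gli1 (call gained in 1) and -0.05 to 0.18 for Gli2. Without DDR2-plus 1 and 4, chosen after seeing the data, Smo was at 0.22 without a call and Gli2 at -0.06. The cause was not tested.

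Foxl1 and Mycn, without a call, reversed without DDR2-plus 1 and without DDR2-plus 1 and 4 together (-0.85 and -0.40). Leaving out single libraries, Foxl1 ranged from -1.07 to 2.52 and Mycn from -0.03 to 0.76. Among genes between Smoothened and GLI, members included, 1 was higher and 2 lower. The number higher was 2 with DESeq2 and with limma-voom, 8 with library size scaling, and 0 without DDR2-plus 2, DDR2-plus 4, or 1 and 4 together, and 0 were lower with library size scaling. Of the PTHrP list 12 were lower and 5 with library size scaling. DESeq2 gave no adjusted p for Foxl1.

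Deviations of same-numbered libraries correlated weakly, at 0.0289 to 0.0532 over genes in 5 pairs. Each of the libraries nevertheless correlated best with its own number in the other group. Whether the numbers mark pairs is not stated, and the main test did not pair them. With the number as a replicate block, 3054 genes were higher and 2688 lower, the log2 fold change of Ihh was 3.08, and no call on the 9 genes changed. The lowest count of 387 leaves the spread between libraries, not depth, as the limit for the 9 genes.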
